A study of Urocitellus parryii with 3 samples.

Results

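miR-21-5p was followed in livers of Urocitellus parryii, the arctic ground squirrel, which spends its hibernation in repeated torpor and wakes between bouts. Its reads were taken as all distinct reads that share the first 18 bases of the mature sequence, counted once per stage. There were 1359 such distinct reads among 576915 in the table. RNA of 4 animals in early arousal, 4 in late torpor and 6 after reproduction was mixed within each stage and made into 1 library per stage. The early arousal and late torpor animals belonged to the hibernation season, under 4 h of light and 20 h of dark, after at least 4 torpor bouts. The labels place their death on day 4 of a torpor bout, and how this holds for animals in arousal is not stated. They carried implanted temperature transmitters. The post-reproduction animals were the non-hibernating summer group, under 16 h of light and 8 h of dark, so season, light and hibernation cannot be told apart in comparisons with them. They were also anesthetized with isoflurane, which the labels do not record for the others. The animals had been caught in the wild, and no allele or drug under study is named. With 1 pooled library per stage there is no replicate. Every interval given is a 95% interval of counting error, every ratio compares 2 libraries and not 2 stages, and no p-value is given.

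miR-21-5p is a widely expressed mammalian miRNA that rises in many settings of injury, repair and fibrosis, in liver too. In human and rodent cells it lowers the output of genes such as PDCD4, which restrains translation and promotes cell death. It is cut from a hairpin by Drosha and Dicer, and the exact cutting point and later trimming or base addition give it several 3′ ends. In human cells the enzyme PAPD5 adds adenine to the form with a C end and the nuclease PARN then trims it.

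The sequences below are given because every later comparison is between these ends. They are the inserts read between the adapters, as deposited, with T for U. In the first line the capitals mark the seed (bases 2 to 8), which decides target pairing. In the others they mark the bases after base 21. In the human hairpin the 22-nt form is followed by C, T and G, so the 20- to 24-nt forms without added bases follow that hairpin.
Commonest form, 22 nt: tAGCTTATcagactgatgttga
Ending at base 21: tagcttatcagactgatgttg
23 nt with the hairpin base C: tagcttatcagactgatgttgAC
24 nt with the hairpin bases C and T: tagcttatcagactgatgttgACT
23-nt form with A added: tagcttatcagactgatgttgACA
22-nt form with A added: tagcttatcagactgatgttgAA
23-nt form with G added: tagcttatcagactgatgttgACG

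All 1359 distinct reads were placed at 1 position only, on the minus strand of GeneScaffold 5190, in a build that no source used here names. Of these, 1340 were placed over their first 18 bases, from 163980 to 163997. The other 19 had C as base 19 and were placed over 19 bases, from 163979. The scaffold thus departed from miR-21-5p at base 19, and the bases past it were read but not placed. No annotation of this scaffold was used here, so whether a gene, exon or intron lies there is not known. The passenger arm, miR-21-3p, which is cut from the other side of the same hairpin, was placed elsewhere, from 412084 to 412104 on the plus strand of GeneScaffold 4438.
miR-21-3p, first 21 bases with the seed in capitals: cAACACCAgtcgatgggctgt
The miR-21-5p level therefore rests on an 18-base match to a scaffold other than the one that held miR-21-3p. No read with a start shifted by 1 or 2 bases was placed, so variants of the 5′ end could not be measured. Reads that differed at 1 of the first 18 bases were placed in 4 groups, with 107 reads in early arousal, 121 in late torpor and 56 in post-reproduction.

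miR-21-5p was among the 20 most abundant sequences in every library, and its level was highest in late torpor. The table held 10562 miR-21-5p reads of 5611673 placed reads from early arousal, 12739 of 5860476 from late torpor and 10586 of 5614441 from post-reproduction. Scaled to 1000000 placed reads per library (counts per 1000000, CPM), this is 1882 (1846 to 1918) in early arousal, 2174 (2136 to 2212) in late torpor and 1885 (1850 to 1922) in post-reproduction. The late torpor library stood above the other two beyond counting error, and the intervals of early arousal and post-reproduction overlapped almost wholly. Ranked by reads among groups that share their first 18 bases, miR-21-5p stood at place 20 in early arousal, 13 in late torpor and 17 in post-reproduction.

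How far the libraries differed depended on the reads they were scaled on. With trimmed mean of M-values factors, which remove a shift shared by most sequences, computed over all 18-base groups of at least 100 reads, the level was 1603 CPM in early arousal, 2492 in late torpor and 1931 in post-reproduction. The log2 ratio of these factors was 0.43 for early arousal over late torpor, 0.27 for early arousal over post-reproduction and -0.16 for late torpor over post-reproduction, and each was subtracted from all log2 level ratios of its comparison. With factors computed over 39 families of reads that carry the seed of a known miRNA, a choice made after the first values were seen, the levels were 1805, 2182 and 1958 CPM in early arousal, late torpor and post-reproduction. Late torpor was the highest library under each of these 3 scalings.

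**Figure D1:**
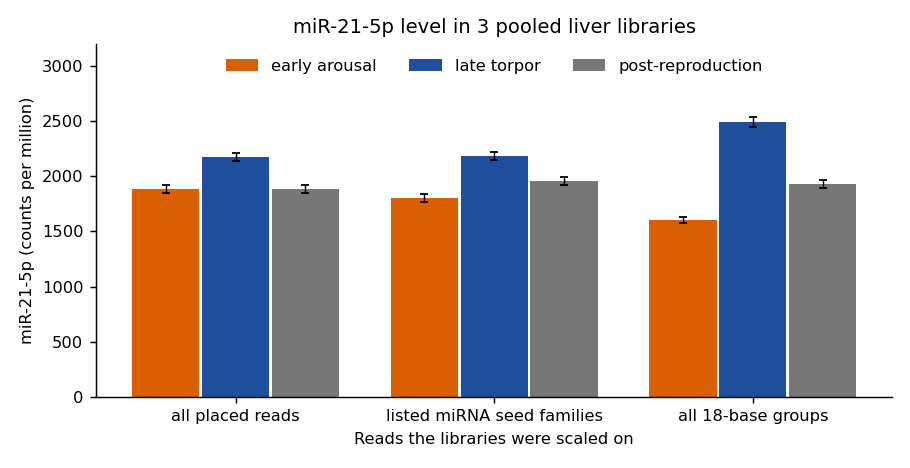
miR-21-5p level in CPM (vertical axis) in the 3 libraries, scaled on all placed reads, on listed miRNA seed families and on all 18-base groups. Bars are single pooled libraries and error bars are 95% counting intervals; late torpor is highest in each set, at 2174, 2182 and 2492.

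In early arousal over late torpor the ratio on all 18-base groups was 0.643 (0.627 to 0.660), past the 1.5-fold limit set for a call. Such a ratio was not unusual, since 36.7% of 586 groups with at least 100 reads in both libraries together passed the same limit in this comparison, with a median log2 ratio of -0.08 over all of them. The call ended under plain scaling to placed reads, at a ratio of 0.866 (0.844 to 0.889), and on the seed families, at 0.827 (0.806 to 0.849).

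In late torpor over post-reproduction the ratio was 1.29 (1.26 to 1.32), short of the 1.5-fold limit, which 49.7% of 580 groups passed. It was 1.15 (1.12 to 1.18) on placed reads and 1.11 (1.09 to 1.14) on the seed families. In early arousal over post-reproduction the ratio was 0.830 (0.808 to 0.853), also short of the limit, which 44.3% of 607 groups passed. On placed reads it was 0.998 (0.972 to 1.03), and on the seed families 0.922 (0.897 to 0.947). The comparisons with post-reproduction share that library.

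miR-122-5p, the dominant miRNA of hepatocytes, gives a yardstick without library factors. Its group held most placed reads, at 4062934 in early arousal, 4468981 in late torpor and 4205895 in post-reproduction. The yardstick thus lies close to plain CPM and is not separate from it. The miR-21-5p group held 2.60 reads per 1000 reads of the miR-122-5p group in early arousal, 2.85 in late torpor and 2.52 in post-reproduction. Late torpor was again the highest, by a ratio of 1.13 (1.10 to 1.16) over post-reproduction. Early arousal over late torpor was 0.912 (0.889 to 0.936). Early arousal over post-reproduction was 1.03 (1.01 to 1.06), so here the direction turned from that on all 18-base groups. RNA from liver as a whole does not tell fewer cells of a type from less RNA per cell.

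Of the miRNAs often studied with miR-21 in liver injury, fibrosis and regeneration, 9 seeds were searched, miR-122-5p and miR-21-3p among them, and 7 had at least 100 reads in both libraries together. The others were miR-21-3p and miR-155-5p, a miRNA of activated immune cells with 10, 12 and 14 reads in early arousal, late torpor and post-reproduction. On the scaling over all 18-base groups, 1 of the 7 was at least 1.5-fold lower in early arousal than in late torpor and none was higher, with a median ratio of 0.816, where 36.7% of all groups passed the limit in either direction. That was the seed of miR-146a-5p, a brake on inflammatory signalling, at 0.515 (0.387 to 0.683). The same seed was the only one past the limit in early arousal over post-reproduction, at 0.528 (0.397 to 0.698), where the list's median was 0.808 and 44.3% of all groups passed. In plain CPM this seed stood at 15.1 in early arousal, 21.8 in late torpor and 23.9 in post-reproduction, short of 1.5-fold between early arousal and late torpor. In late torpor over post-reproduction none of the 7 passed, against 49.7% of all groups, and the median was 1.08. The seeds of miR-199a-3p, abundant in stellate cells, at 0.893, and of miR-221-3p together with miR-222-3p, at 0.876, lay below 1 there. The rest of the 7, the seeds of miR-26-5p, miR-122-5p, miR-29-3p, miR-34a-5p and miR-146a-5p, lay above 1, as did miR-21-5p at 1.29. The intervals of miR-34a-5p and miR-146a-5p held 1.

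Markers of other cells differed between the libraries as well. Summed over the seeds of miR-451a, miR-144-3p and miR-486-5p, red-cell miRNAs stood at 139 CPM of placed reads in early arousal, 275 in late torpor and 174 in post-reproduction, so they too were highest in late torpor. All 3 passed the 1.5-fold limit as lower in early arousal than in late torpor, with a median ratio of 0.308, where 36.7% of all groups passed it in either direction. Against post-reproduction, 2 of 3 were lower in early arousal (median 0.538) and 2 of 3 higher in late torpor (median 1.94), where 44.3% and 49.7% of all groups passed the limit, so with 3 seeds these counts do not stand apart. The leukocyte seeds of miR-142-5p, miR-223-3p and miR-150-5p summed to 63.1, 82.9 and 50.8 CPM in early arousal, late torpor and post-reproduction, and miR-150-5p had 0, 1 and 1 reads. The sum leaves out a group whose commonest insert starts 2 bases before the miR-142-5p seed reads. That group had 1324 inserts in early arousal, 1864 in late torpor and 1298 in post-reproduction, more than the seed's 348, 472 and 269 reads. Only the miR-142-5p seed had 100 reads, and it passed the limit as lower in early arousal than in late torpor, at 0.572, and as higher in late torpor than in post-reproduction, at 1.88. In plain CPM it stood at 62.0 in early arousal, 80.5 in late torpor and 47.9 in post-reproduction, short of the limit between early arousal and late torpor. In plain CPM the stellate and smooth muscle seeds of miR-199a-3p, miR-143-3p and miR-145-5p summed to 4460 in early arousal, 3182 in late torpor and 4049 in post-reproduction. This sum was thus lowest in late torpor. The 2 of these with 100 reads passed no limit. Their median ratios were 1.06 for early arousal over late torpor, 0.927 for early arousal over post-reproduction and 0.879 for late torpor over post-reproduction. The 2 seeds differed in direction. Early arousal over late torpor was 0.905 (0.882 to 0.929) for miR-199a-3p and 1.21 (1.18 to 1.24) for miR-143-3p. Early arousal over post-reproduction was 0.808 and 1.05, and late torpor over post-reproduction 0.893 and 0.865, in the same order. With trimmed mean of M-values factors, miR-199a-3p was thus lowest in early arousal and miR-143-3p in late torpor. The endothelial seed of miR-126-3p had 48, 71 and 55 reads in early arousal, late torpor and post-reproduction. What part these cells had in the miR-21-5p level was not tested.

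The passenger arm was nearly absent. miR-21-3p had 5 reads in early arousal, 4 in late torpor and 3 in post-reproduction. There were thus 2112, 3185 and 3529 reads of miR-21-5p per miR-21-3p read, and with so few reads no difference was detectable at this depth.

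The 3 libraries had much the same length forms of miR-21-5p. Insert length could be read where the adapter was found, in 10212 reads from early arousal, 12348 from late torpor and 10170 from post-reproduction, or 96.1% to 96.9% of the reads of each library. Inserts of 22 nt were the commonest, at 37.3% in early arousal (36.4 to 38.3), 38.4% in late torpor (37.6 to 39.3) and 36.0% in post-reproduction (35.1 to 36.9). Inserts of 23 nt took 26.1% in early arousal (25.3 to 26.98), 25.4% in late torpor (24.6 to 26.2) and 28.5% in post-reproduction (27.6 to 29.4). The 23-nt share was thus lower in both hibernation-season libraries, with intervals that did not overlap that of post-reproduction. Inserts of 21 nt took 16.8%, 16.4% and 16.0%, and those of 24 nt 17.7%, 17.9% and 17.2%, in early arousal, late torpor and post-reproduction. The mean length was 22.43 nt in early arousal, 22.45 in late torpor and 22.46 in post-reproduction, with an SD over reads of 1.06, 1.04 and 1.05 nt.

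**Figure D2:**
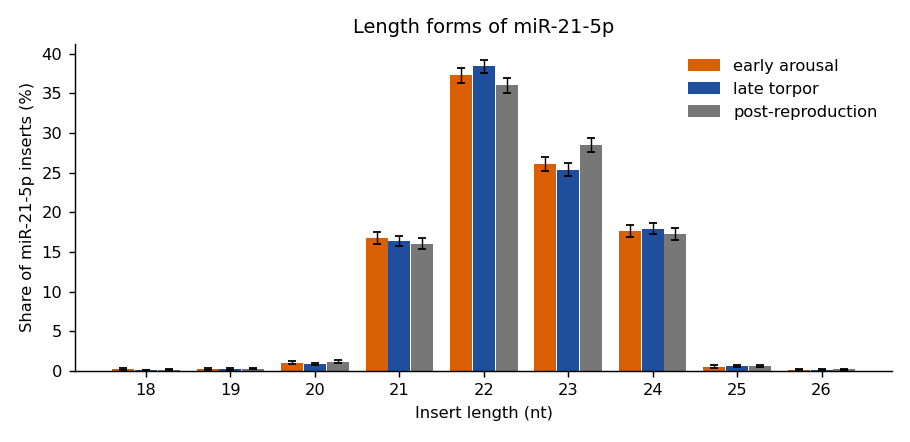
Share of miR-21-5p inserts (vertical axis, %) by insert length (horizontal axis, nt) in the 3 libraries, with 95% exact binomial intervals. The 22-nt form leads in each library, and the 23-nt bars are lower in early arousal (26.1%) and late torpor (25.4%) than in post-reproduction (28.5%).

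Long inserts, of 23 nt or more, were slightly rarer in both hibernation-season libraries than in the post-reproduction library. They made up 44.5% in early arousal (43.5 to 45.4), 44.1% in late torpor (43.2 to 45.0) and 46.4% in post-reproduction (45.5 to 47.4). The odds ratio was 0.923 (0.874 to 0.976) for early arousal over post-reproduction and 0.909 (0.862 to 0.959) for late torpor over post-reproduction. For early arousal over late torpor it was 1.02 (0.963 to 1.07). With 24 nt as the limit both ratios to post-reproduction turned, to 1.03 for early arousal and 1.05 for late torpor, and had intervals that held 1, so the difference lay in the 23-nt inserts.

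Among other abundant sequences, groups with longer inserts in the hibernation-season libraries than in post-reproduction outnumbered groups with shorter ones. Of the other 18-base groups, 60 had 1000 inserts or more in every library. Among them the share of inserts longer than each group's commonest had a higher odds in early arousal than in post-reproduction for 36 groups (60%) and a lower odds for 5 (8.33%), by intervals that exclude 1. In late torpor over post-reproduction 34 groups (56.7%) were longer and 5 (8.33%) shorter. The median log2 odds ratio of these groups was 0.25 for early arousal and 0.23 for late torpor over post-reproduction, while miR-21-5p lay at -0.11 and -0.14. In each of these comparisons 7 of the 60 groups lay below miR-21-5p. Of the 60, 11 differed at 5 or fewer of their 18 bases, aligned or shifted by 1, from a group at least 20 times as abundant, all close to miR-122-5p or let-7, and genuine let-7 relatives may be among them. Without these 11, a step added after seeing the data, 25 of 49 groups (51.0%) were longer and 5 shorter in early arousal than in post-reproduction, and 23 (46.9%) were longer and 5 shorter in late torpor than in post-reproduction, with medians of 0.18 and 0.16. The libraries are single, so this sets miR-21-5p beside other sequences of the same libraries and is no test between stages.

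**Figure D3:**
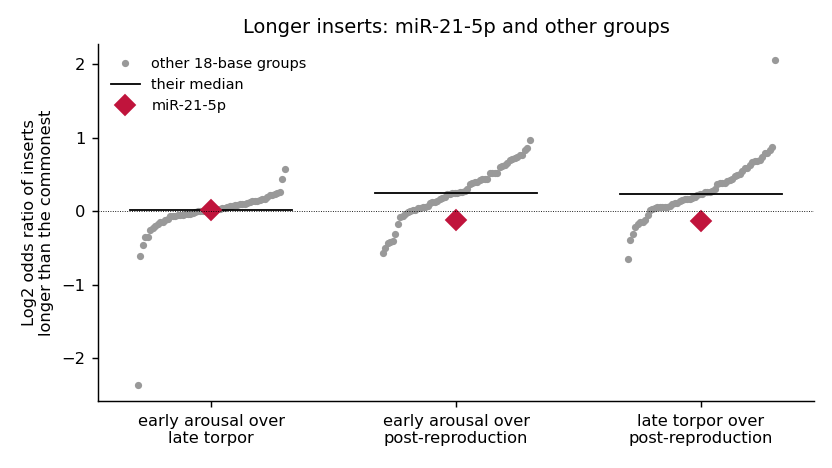
Log2 odds ratio of inserts longer than the commonest one (vertical axis) for miR-21-5p (red diamonds) and 60 other 18-base groups (grey points, sorted from low to high) in the 3 comparisons. Black lines are the medians of the other groups; miR-21-5p lies at -0.11 and -0.14 in the comparisons with post-reproduction, where the medians are 0.25 and 0.23.

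The 23-nt hairpin end closes with C. Among the 8 forms with at least 1% of inserts in a library, it differed most in percentage points between the hibernation-season libraries and post-reproduction. The 22-nt form held 34.8% in early arousal (33.9 to 35.7), 36.8% in late torpor (36.0 to 37.7) and 34.5% in post-reproduction (33.6 to 35.5). It was highest in late torpor, with odds ratios of 1.11 (1.05 to 1.17) over post-reproduction and 0.914 (0.865 to 0.966) for early arousal over late torpor. The 23-nt hairpin end held 21.97% in early arousal (21.2 to 22.8), 21.8% in late torpor (21.1 to 22.6) and 25.3% in post-reproduction (24.4 to 26.1). It was lower in both hibernation-season libraries. The odds ratios over post-reproduction were 0.832 (0.780 to 0.889) for early arousal and 0.825 (0.775 to 0.878) for late torpor. Early arousal over late torpor was 1.01 (0.947 to 1.08). Its last C misread as T would take inserts out of this form. The form so made held 0.333% in early arousal, 0.786% in late torpor and 0.236% in post-reproduction. Rates of that misreading in the adapter are given below, and its part here was not tested. The end at base 21 held 15.9%, 15.9% and 15.5%, with intervals of the odds ratio that held 1 in all 3 comparisons. The 24-nt hairpin end held 2.37% in early arousal, 1.89% in late torpor and 2.37% in post-reproduction, and was lowest in late torpor, with odds ratios of 0.792 (0.658 to 0.955) over post-reproduction and 1.26 (1.05 to 1.52) for early arousal over late torpor. The form ending in C and A would turn into this end if its last A were misread as T. Rates of that misreading in the adapter are given below for each library, and its part in this form was not tested. The 20-nt end held 1.01% in early arousal, 0.818% in late torpor and 1.10% in post-reproduction, with an odds ratio of 0.741 (0.560 to 0.979) for late torpor over post-reproduction. The form with G added to the 23-nt end held 0.685%, 0.672% and 1.06%, with odds ratios over post-reproduction of 0.643 (0.468 to 0.878) in early arousal and 0.630 (0.467 to 0.848) in late torpor, the farthest from 1 of the 8.

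**Figure D4:**
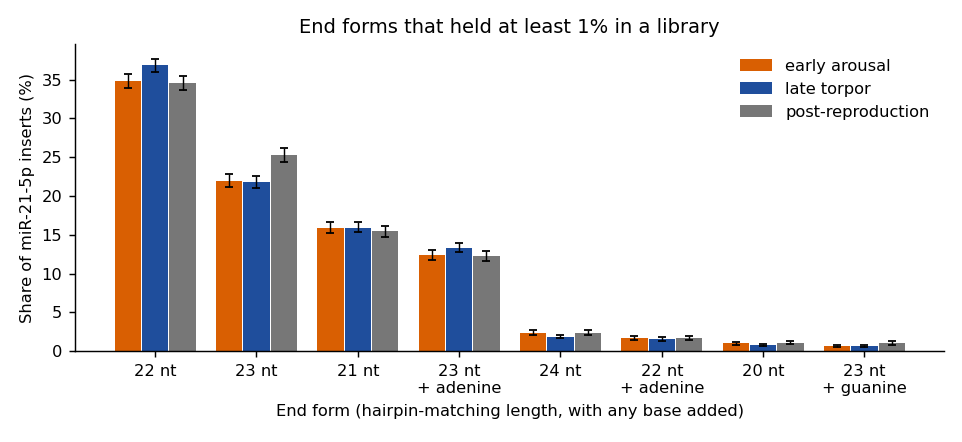
Share of miR-21-5p inserts (vertical axis, %) for the 8 end forms that held at least 1% in a library, with 95% exact binomial intervals. The 23-nt hairpin end stands at 21.97% in early arousal and 21.8% in late torpor, below the 25.3% of post-reproduction.

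Added adenine was the main departure from the hairpin bases. Ends made of hairpin bases followed only by A held 15.2% of inserts in early arousal (14.5 to 15.9), 16.4% in late torpor (15.7 to 17.0) and 15.2% in post-reproduction (14.5 to 15.9). Late torpor was the highest, with an odds ratio of 1.09 (1.02 to 1.18) over post-reproduction, and early arousal over late torpor was 0.915 (0.851 to 0.984). Early arousal over post-reproduction was 1.0005 (0.926 to 1.08). With no mismatch allowed in the adapter, late torpor over post-reproduction was 1.06 and its interval held 1. Among 46 other groups whose commonest insert was fully placed, A tails were lower in early arousal than in late torpor for 6.52% and higher for 15.2%, with a median log2 odds ratio of 0.03 against -0.13 for miR-21-5p. In late torpor over post-reproduction they were higher for 28.3% and lower for 10.9%, with a median of 0.10 against 0.13 for miR-21-5p. The median share of A tails over these groups was 8.41% in early arousal, 9.49% in late torpor and 7.54% in post-reproduction, and 8, 6 and 6 of the 46 lay above miR-21-5p. Their tails were judged against the scaffold and those of miR-21-5p against the human hairpin, so these shares are only roughly comparable.

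Adenine was found mostly on the 23-nt end. Of inserts with that end, 36.5% carried A or AA in early arousal (34.9 to 38.1), 38.6% in late torpor (37.2 to 40.1) and 33.4% in post-reproduction (31.9 to 34.9). Both hibernation-season libraries were higher, with odds ratios of 1.15 (1.04 to 1.27) for early arousal and 1.26 (1.15 to 1.38) for late torpor over post-reproduction. Early arousal over late torpor was 0.914 (0.833 to 1.0025), and 0.902 with an interval below 1 when no adapter mismatch was allowed. An added A misread as T or G would lower this share. Rates of both misreadings in the adapter, highest in post-reproduction, are given below, and their part in this share was not tested. Of inserts with the 22-nt end, 6.06% carried A or AA in early arousal, 5.68% in late torpor and 5.97% in post-reproduction, and all 3 intervals of the odds ratio held 1. Of inserts with the 24-nt end, 8 of 250 carried A in early arousal, 18 of 251 in late torpor and 8 of 249 in post-reproduction, too few to show a difference. The form with C and A held 12.4%, 13.4% and 12.3% of all inserts in early arousal, late torpor and post-reproduction. In early arousal the higher share of A on the 23-nt end thus went with fewer inserts ending at C, and in late torpor with fewer ending at C and more ending in C and A.

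Other ends were rare. Tails of T only held 1.64% in early arousal, 1.64% in late torpor and 1.23% in post-reproduction, with odds ratios over post-reproduction of 1.34 (1.05 to 1.70) in early arousal and 1.34 (1.06 to 1.69) in late torpor. Tails of G only held 0.842%, 0.794% and 1.27%, with odds ratios over post-reproduction of 0.661 (0.497 to 0.877) in early arousal and 0.623 (0.473 to 0.817) in late torpor. Within the T tails, the 22-nt form with T added had 34 inserts in early arousal, 97 in late torpor and 24 in post-reproduction, an odds ratio of 3.35 (2.12 to 5.48) for late torpor over post-reproduction. The form is named because of its value. T as base 23 cannot be told apart from the hairpin C misread as T.

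The adapter, whose sequence is known, gives rates of misread bases at the same cycles. These are rates of adapter bases after inserts of other lengths, counted only where the adapter was still recognized. The rates in miR-21-5p may differ from them. At sequencing cycle 23, adapter C was read as T in 1.41% of other reads in early arousal, 4.46% in late torpor and 0.664% in post-reproduction. In miR-21-5p inserts of at least 24 nt, T stood in place of C at that cycle in 2.14%, 3.42% and 1.53%. Late torpor was thus the highest library in both. The 1 other group examined with C at that cycle gave another order. T stood there in 6.99% in early arousal, 6.66% in late torpor and 4.67% in post-reproduction, so early arousal was the highest in that group. At cycle 19, T was read as A in 1.04% of miR-21-5p inserts in early arousal, 0.138% in late torpor and 0.168% in post-reproduction, and adapter T was read as A in 1.09%, 0.172% and 0.225% of other reads. T was read as G there in 0.275%, 0.0893% and 0.0790% of miR-21-5p inserts but in 0.619%, 0.398% and 0.704% of other reads, so post-reproduction was the lowest library in miR-21-5p and the highest in the adapter. All bases other than T at cycle 19 came to 1.88% of miR-21-5p reads in early arousal, against 0.322% in late torpor and 0.387% in post-reproduction. At cycle 21, G was read as T in 2.05%, 1.92% and 1.11% of miR-21-5p inserts and in 1.02%, 0.806% and 0.538% of adapter bases. At cycle 24, adapter A was read as G in 0.454% of other reads in early arousal, 0.0954% in late torpor and 1.37% in post-reproduction, while G among the 24-nt miR-21-5p ends in A or G was 5.25%, 4.79% and 7.95%. Adapter A was read as T at that cycle in 1.12%, 0.594% and 4.07% of other reads, a change that would turn the form ending in C and A into the 24-nt hairpin end. Both misreadings of A at cycle 24 would take inserts out of the form with C and A, and so lower the share of A on the 23-nt end. The part of misread bases in that share, in the 23- and 24-nt hairpin ends and in the T and G ends was not tested beyond these values. The cycles shown were chosen after their values were seen.

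**Figure D5:**
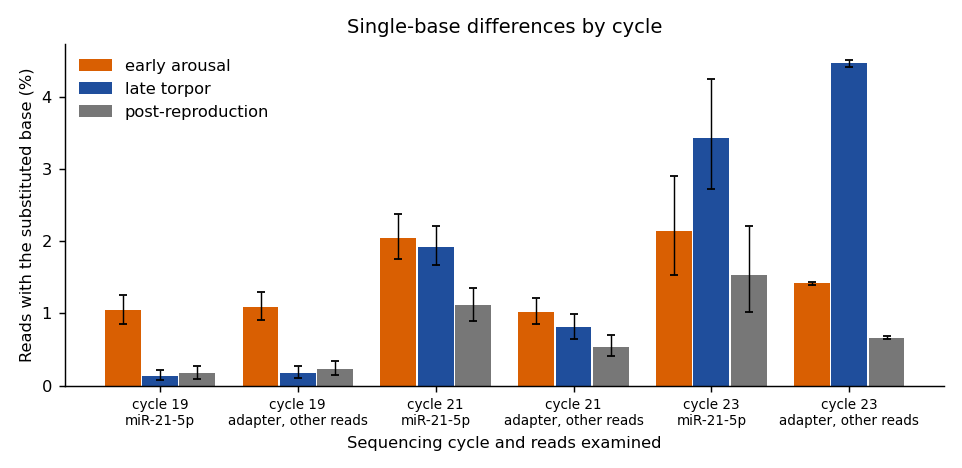
Share of reads with a substituted base (vertical axis, %) at cycles 19 (T read as A), 21 (G read as T) and 23 (C read as T), in miR-21-5p inserts and in the adapter bases of all other reads, with 95% exact binomial intervals. Early arousal leads at cycle 19 in both kinds of read (1.04% and 1.09%) and late torpor leads at cycle 23 in both (3.42% and 4.46%).

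By the distance between both log2 ratios to post-reproduction, the sequences nearest to miR-21-5p among 72 groups with at least 1000 reads in each library were these, shown with the seed in capitals.
With the let-7 seed, distance 0.17: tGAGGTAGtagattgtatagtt
With the miR-122-5p seed, distance 0.19: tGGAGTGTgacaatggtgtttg
With the miR-26-5p seed, distance 0.21: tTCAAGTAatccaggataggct
With the miR-29-3p seed, distance 0.24: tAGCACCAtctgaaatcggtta
With the let-7 seed, distance 0.25: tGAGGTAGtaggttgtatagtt
The distances do not depend on the scaling, which shifts all sequences alike, but the signs do. On all 18-base groups the 5 had log2 ratios from -0.32 to -0.07 in early arousal over post-reproduction and from 0.14 to 0.30 in late torpor over post-reproduction, and miR-21-5p had -0.27 and 0.37. On placed reads the 5 ran from -0.05 to 0.20 in early arousal and from -0.02 to 0.13 in late torpor over post-reproduction, and on the seed families from -0.16 to 0.08 and from -0.07 to 0.08. The difference of miR-21-5p between late torpor and early arousal was larger than that of each of the 5. The pattern rests on 3 libraries.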

How the data were processed

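Per the labels' protocols, RNA of 18 to 30 nt was cut from a gel run with about 10 µg of pooled total RNA per stage, ligated to adapters and amplified by 15 cycles of PCR. The authors deposited 1 table in which each text entry joins a read of 30 bases, its whole-number read count and its stage, with the placed part in capitals, per the file headers. Aligner, genome build and read filters were not given in the sources used here. In all, 866747 lines had a position. Counts were read out of the text, each read once per stage (no entry of 4218154 carried a different count), and every entry carried 1 of the 3 stage codes.

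miR-21-5p was taken as the most abundant group of reads with T and the miR-21 seed at the start. No miRNA table was used here, so seeds, names and the 3 hairpin bases come from general knowledge, and near-identical relatives share a seed. Inserts of 18 to 26 nt were called by the best adapter match, with at most 1 mismatch per 5 adapter bases. Scaling used trimmed mean of M-values factors (30% trimmed on ratio, 5% on abundance; own code) over 824 groups of at least 100 reads: 1.17 in early arousal, 0.872 in late torpor and 0.977 in post-reproduction. Level ratios have exact conditional binomial intervals, odds ratios exact conditional ones and shares exact Clopper-Pearson ones; those over other groups are normal approximations. PCR reads carry no molecular identifiers. A count of 0 allows up to 3 counts, or 0.512 to 0.535 CPM, counts scaled to 1000000 placed reads. Forms named held at least 1% of inserts in a library, and the 5 nearest groups and the lists were named by rule. Members, lists and rules were chosen with earlier results of these data known. The planned tail measure, bases past the placed part, could not serve because the placed part ends at base 18, so ends were judged against the commonest insert and the hairpin bases. Code ran in Python 3.11.15 with numpy 2.4.6, pandas 2.3.3, scipy 1.17.1 and matplotlib 3.10.9, and was tested on simulated data.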

Additional observations from a re-analysis of the deposited data

How the results depend on the processing

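No paired analysis was possible because each stage has 1 library. The log2 level ratio of early arousal over late torpor was -0.64 and lost its 1.5-fold call with plain CPM (-0.21), with reads outside the most abundant group as the total (-0.42), without a minimum of reads in the scaling (-0.58) and on listed seed families (-0.27, added after seeing the data). It kept the call under 6 others; the 2 on shifted starts and on multiply placed reads had no read to change and test nothing. The ratios to post-reproduction stayed short of the limit under the other 10 alternatives, from -0.29 to -0.003 in early arousal and from 0.16 to 0.48 in late torpor. On plain CPM the interval in early arousal held 0 (-0.04 to 0.04), and per miR-122-5p read that ratio turned. With 24 nt as the limit the log2 odds of long inserts turned from 0.02 to -0.033 (early arousal over late torpor), from -0.11 to 0.038 (early arousal over post-reproduction) and from -0.14 to 0.071 (late torpor over post-reproduction). Judged by the placed part as planned, all inserts but those of 18 nt counted as tailed, with log2 odds of -1.28, -0.75 and 0.52 in the same order. Judged against the hairpin bases, an alternative added after seeing the data, they were -0.037, 0.098 and 0.13. With no mismatch in the adapter the A tail of early arousal over post-reproduction turned from 0.00069 to -0.055, and that of late torpor over post-reproduction lost its call at 0.09. Adapters of at least 8 bases leave only inserts of up to 22 nt, which excludes A added to the 22- and 23-nt ends. The A tails left numbered 19 in early arousal, 25 in late torpor and 17 in post-reproduction. The calls of late torpor over post-reproduction (0.21) and early arousal over late torpor (-0.11) were lost there, but so few inserts cannot test them. Why the other values moved was not tested. That adapter setting was not run for inserts of 23 nt or more, nor was a locus rebuilt from placed reads, which end at base 19. Depth limits forms under about 1% of inserts and miR-21-3p.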

Other observations

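Reads with the miR-21 seed but another first base were almost absent. Those starting with G, as the relative miR-590-5p does in human, numbered 15 in early arousal, 15 in late torpor and 8 in post-reproduction. Of the miR-21-5p reads, 0.379% in early arousal, 0.926% in late torpor and 5.86% in post-reproduction held an unread base (N), against 0.407%, 1.04% and 5.76% of all placed reads.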
